A study of Mus musculus with 8 samples.

Results

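The immunity-related GTPases (IRG) and guanylate-binding proteins (GBP) Irgm1, Irgm2, Igtp, Iigp1, Gbp2, Gbp3, Gbp5, Gbp6, Gbp7 and Gbp9 were followed in retinas of rd10 mice during photoreceptor loss. The 10 genes were chosen by name, and their rows were found in the count table by Ensembl gene identifier. They are 10 of 57010 identifiers in the table, and all 10 passed the filter on low counts, which kept 20457 genes. Poly(A) RNA of 1 whole retina per sample was sequenced in 4 groups of 2 biological replicates: wild-type retinas at postnatal day 15 (WT P15) and rd10 retinas at P15, P18 and P21. Wild-type mice were C57BL/6J by the study's methods, which name littermates as the controls, and rd10 mice were homozygous for a missense mutation in Pde6b, the beta subunit of the rod phosphodiesterase. No treatment is named for these samples. No wild-type retina of P18 or P21 was among the samples, so age and genotype cannot be told apart in the comparisons of rd10 P18 and P21 with WT P15.

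Both GTPase families belong to the cell-autonomous defence that interferons switch on. Interferon gamma and type I interferons each act through a receptor of their own, Janus kinases and transcription factors that move to the nucleus. In a resting cell IRG and GBP genes are little expressed. After induction, the proteins bind membranes around intracellular parasites and bacteria, where effector IRG proteins and GBP proteins assemble into coats, while the regulatory IRGM proteins sit on the cell's own membranes and keep the effectors inactive there. The DNA elements through which they act are the interferon-stimulated response element (ISRE), mostly for type I interferons, and the gamma-activated site (GAS), mostly for interferon gamma.

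The promoters of the genes are shown first, and their part in the levels below was not tested. RefSeq windows from 250 bases before to 50 bases after the transcription start (build GRCm38.p6) held 7 of the 10 genes in 8 windows. Gbp6, Gbp9 and Iigp1 had no entry. The stretches below are on the gene's own strand, 5′ to 3′, and capitals mark matches to the ISRE core, which is GAAA, any 2 bases and GAAA, or to its reverse complement. Gbp5 is at chr3:142496729-142496818 (+), Gbp7 at chr3:142530243-142530332 (+), Gbp3 at chr3:142559965-142560043 (+) and Gbp2 at chr3:142620564-142620653 (+). Irgm1 is at chr11:48871421-48871484 (-), Igtp at chr11:58199482-58199555 (+) and Irgm2 at chr11:58214873-58214962 (+).
Gbp5: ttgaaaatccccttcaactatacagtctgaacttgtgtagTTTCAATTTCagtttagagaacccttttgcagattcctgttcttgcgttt
Gbp7: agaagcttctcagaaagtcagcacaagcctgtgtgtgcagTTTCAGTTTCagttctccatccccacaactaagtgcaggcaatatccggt
Gbp3: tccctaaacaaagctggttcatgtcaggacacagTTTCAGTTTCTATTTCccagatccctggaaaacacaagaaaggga
Gbp2: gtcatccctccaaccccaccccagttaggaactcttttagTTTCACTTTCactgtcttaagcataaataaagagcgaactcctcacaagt
Irgm1: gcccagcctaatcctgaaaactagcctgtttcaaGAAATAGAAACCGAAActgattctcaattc
Igtp: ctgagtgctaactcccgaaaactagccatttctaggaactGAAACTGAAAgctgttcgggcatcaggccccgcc
Irgm2: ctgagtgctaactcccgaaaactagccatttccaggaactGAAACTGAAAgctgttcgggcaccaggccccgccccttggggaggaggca

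An ISRE core match was found on either strand in 7 of 7 genes with an entry, and in 3.44% of all 32851 promoter windows of this length. The match began between 24 and 64 bases before the start in 6 of the genes, and 165 bases before it in Gbp5. Gbp3 and Irgm1 each held 2 matches that overlap each other. The GAS core TTCNNNGAA, which reads the same on both strands, was found in 4 of the 7 genes (Gbp5, Gbp7, Igtp and Irgm2) and in 8.3% of all windows. No ISRE match overlapped a GAS match. The windows of Igtp and Irgm2 aligned over 265 bases with 92.1% identity, so their matches are not independent. Among the other IRG and GBP genes, 4 of 7 with an entry outside chromosome 18, which was left out of this count, held an ISRE core match. A match is a description of the letters, not of a bound site, and no binding was measured.

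**Figure D1:**
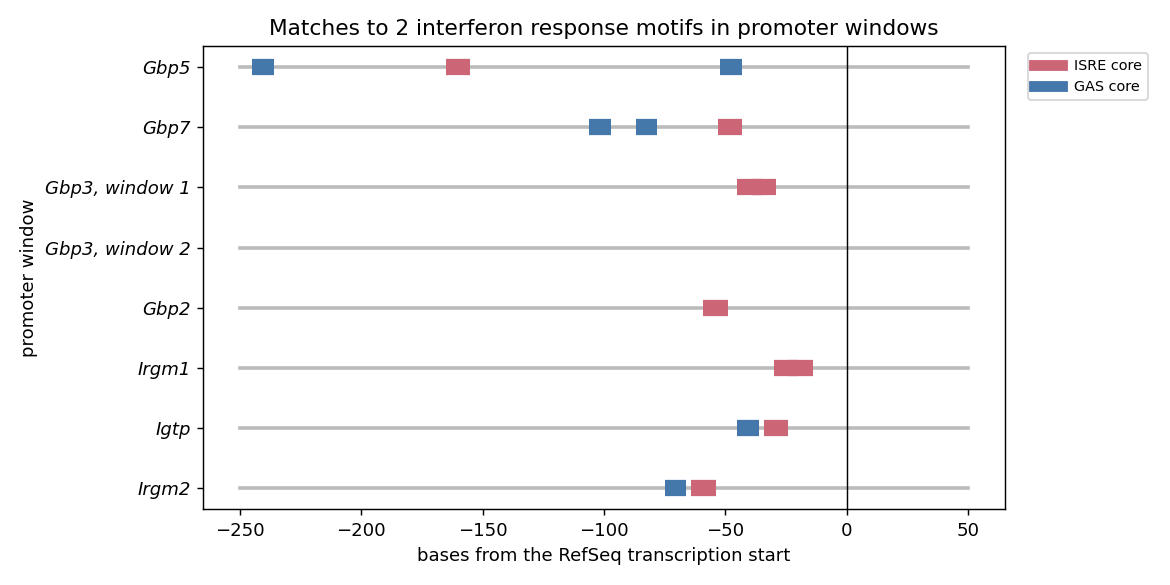
Positions of ISRE core (red) and GAS core (blue) matches in the 8 RefSeq promoter windows of 7 genes; the x axis gives bases from the transcription start (0), and each grey line is 1 window from 250 bases before to 50 bases after the start. The matches of Gbp2, Gbp7, Irgm1, Igtp, Irgm2 and the first Gbp3 window lie within the last 106 bases before the start, whereas those of Gbp5 are spread over the window and the second Gbp3 window has none.

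Total counts lay between 28076947 and 33724562 per library. Values are given as CPM, counts divided by the library total after scaling by the trimmed mean of M values (TMM), whose factors lay between 0.937 and 1.06. Retinal identity was checked by rod genes: Pde6b itself had 2335 and 2128 CPM in WT P15 and between 964 and 1799 CPM in the 6 rd10 libraries, and the rod marker list summed to 46666 and 37722 CPM in WT P15 and to 18081 and 23625 CPM in rd10 P21. The missense allele is transcribed, so the level of Pde6b does not check the genotype. Y-linked genes had 5530 to 7193 counts in 4 libraries (rd10 P15 replicates 1 and 2, P18 replicate 1 and P21 replicate 1) and 3 to 19 counts in the other 4. WT P15 and rd10 P15 therefore differ in this respect as well as in genotype, and the libraries within rd10 P18 and within P21 differ in it too. The p-values of the model fits below rest on a spread estimated from all 4 groups of 2 retinas. It is not the spread of the 2 groups compared alone. In bulk RNA a change in the number of cells that express a gene and a change in RNA per cell cannot be told apart.

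In the first comparison, of rd10 with WT at P15, none of the GTPase genes passed the test given below. At P18 and P21 each of the 10 genes was higher in both rd10 libraries than in either WT P15 library. Their levels added up to 25.9 and 30.9 CPM for WT P15 (replicate 1, then 2), 25.6 and 21.9 CPM for rd10 P15, 682 and 255 CPM for rd10 P18, and 407 and 90.4 CPM for rd10 P21. The 4 P15 libraries thus lay close together, all 4 later libraries lay above them, and within P18 and P21 replicate 1 was well above replicate 2. The median of the 10 log2 fold changes against WT P15 was -0.11 for rd10 P15, 4.04 for P18 and 3.19 for P21, whereas the median of all genes tested was between -0.01 and 0.01 in these comparisons. The 3 comparisons share the WT P15 libraries.

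**Figure D2:**
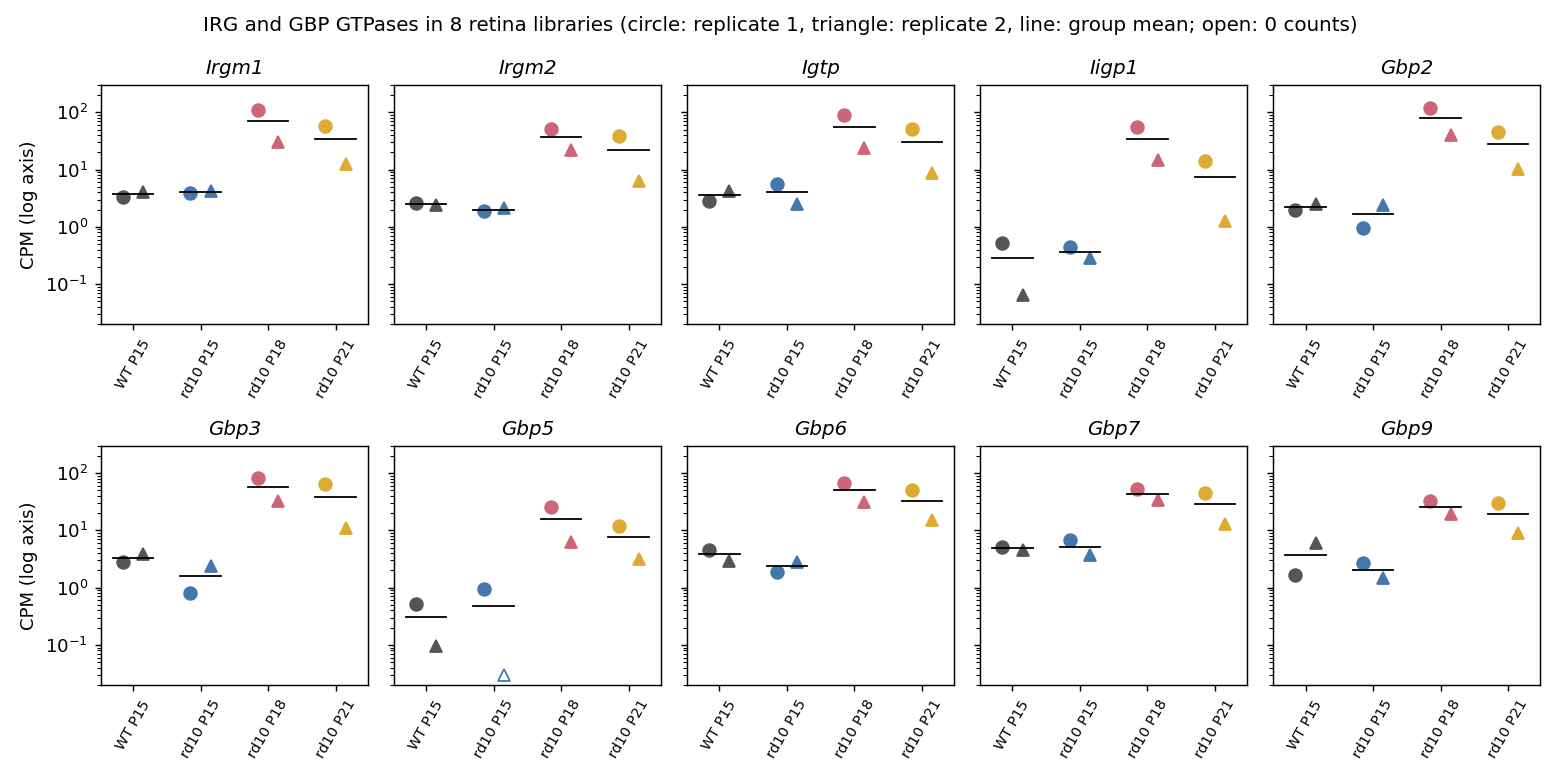
Level of each GTPase gene in the 8 libraries; the y axis is CPM on a log scale, circles are replicate 1, triangles replicate 2, black lines group means, and the open symbol is a library with 0 counts, drawn near the bottom of the axis. In every panel the 4 symbols of rd10 P18 and P21 stand above the 2 symbols of WT P15, and within rd10 P18 and P21 the circle stands above the triangle.

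Among the regulatory IRGM genes, Irgm1 (LRG-47, needed for control of intracellular bacteria and for autophagy and mitochondrial balance) had 3.36 and 4.11 CPM in WT P15, 3.88 and 4.19 CPM in rd10 P15, 109 and 30.4 CPM in rd10 P18, and 57.0 and 12.6 CPM in rd10 P21. All 4 later libraries stood above the P15 range, and the log2 fold change against WT P15 was 4.22 ± 0.94 (SE) at P18 and 3.22 ± 0.91 at P21. Irgm2, which is found at the Golgi and on other endomembranes, had 2.59 and 2.43 CPM in WT P15, 1.88 and 2.12 CPM in rd10 P15, 50.9 and 21.96 CPM in rd10 P18, and 38.4 and 6.36 CPM in rd10 P21. Its rd10 P15 libraries lay below both WT libraries, and the later ones lay above them by 3.86 ± 0.90 and 3.16 ± 0.88 on the log2 scale. Igtp (Irgm3), which is found at the endoplasmic reticulum and on lipid droplets, had 2.81 and 4.31 CPM in WT P15, 5.51 and 2.54 CPM in rd10 P15, 88.7 and 23.9 CPM in rd10 P18, and 50.7 and 8.67 CPM in rd10 P21. Its P15 groups overlapped, and its log2 fold changes were 3.98 ± 1.09 and 3.06 ± 1.05.

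Iigp1 (Irga6), the effector IRG in the set, showed the highest log2 fold changes against WT P15 of the 10 genes at P18 and P21 and started from one of the lowest levels. It had 0.517 and 0.0647 CPM in WT P15, 0.446 and 0.282 CPM in rd10 P15, 54.9 and 14.7 CPM in rd10 P18, and 13.8 and 1.26 CPM in rd10 P21. The gene was close to undetected at P15, and both rd10 P21 libraries lay below both rd10 P18 libraries, which held for no other gene of the 10. The log2 fold change against WT P15 was 6.93 ± 1.60 at P18 and 4.73 ± 1.52 at P21. These rest on 14 and 2 counts in the WT libraries.

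Of the GBP genes on chromosome 3, Gbp2, whose protein coats pathogen vacuoles and bacteria, had the highest CPM of the 10 genes at P18. It had 1.96 and 2.53 CPM in WT P15, 0.955 and 2.40 CPM in rd10 P15, 117 and 40.04 CPM in rd10 P18, and 45.1 and 10.1 CPM in rd10 P21. The P15 groups overlapped, and the log2 fold change was 5.13 ± 1.00 at P18 and 3.62 ± 0.95 at P21. Gbp3, recruited to the Toxoplasma vacuole in interferon-treated cells, had 2.81 and 3.88 CPM in WT P15, 0.796 and 2.40 CPM in rd10 P15, 82.7 and 32.8 CPM in rd10 P18, and 64.9 and 11.2 CPM in rd10 P21. Both rd10 P15 libraries were below both WT libraries, and the later log2 fold changes were 4.10 ± 1.04 and 3.51 ± 1.013.

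Gbp5, which has been linked to inflammasome assembly, was the least abundant GBP gene of the set. It had 0.517 and 0.0971 CPM in WT P15, 0.955 and 0 CPM in rd10 P15, 25.7 and 6.30 CPM in rd10 P18, and 11.8 and 3.15 CPM in rd10 P21. The later libraries did not overlap with the P15 libraries, and the log2 fold change was 5.72 ± 1.66 at P18 and 4.63 ± 1.61 at P21, from 14 and 3 counts in WT P15. Gbp7, also recruited to the Toxoplasma vacuole, started from the highest CPM. It had 5.10 and 4.60 CPM in WT P15, 6.65 and 3.74 CPM in rd10 P15, 52.1 and 34.4 CPM in rd10 P18, and 45.3 and 12.8 CPM in rd10 P21. Its log2 fold changes, 3.16 ± 0.62 and 2.58 ± 0.61, had the smallest standard errors of the 10 genes.

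Of the GBP genes on chromosome 5, Gbp6 had 4.62 and 2.95 CPM in WT P15, 1.91 and 2.82 CPM in rd10 P15, 68.3 and 31.4 CPM in rd10 P18, and 49.96 and 15.2 CPM in rd10 P21. Both rd10 P15 libraries were below both WT libraries, and the log2 fold change was 3.72 ± 0.69 at P18 and 3.11 ± 0.68 at P21. Gbp9 had 1.66 and 5.89 CPM in WT P15, 2.64 and 1.45 CPM in rd10 P15, 32.2 and 19.2 CPM in rd10 P18, and 29.5 and 9.05 CPM in rd10 P21. Its WT libraries differed more than those of the other genes above 1 CPM, and its log2 fold changes, 2.76 ± 0.79 and 2.35 ± 0.78, were the smallest of the set at both ages.

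Over all genes, edgeR's quasi-likelihood test called none of the 10 GTPase genes in any of the 6 comparisons between groups, where a call needed an adjusted p under 0.05 together with a change of more than 1 on the log2 scale in either direction. By this rule 0.23% of all genes were called in rd10 P15, 1.48% in P18 and 0.386% in P21, each against WT P15. At P18 the adjusted p by edgeR lay between 0.0599 (Gbp6) and 0.166 (Gbp5), with Gbp7 at 0.0665 and Gbp2 at 0.0775, and at P21 between 0.137 (Gbp6) and 0.347 (Igtp and Gbp5). At an unadjusted p under 0.05 in the same edgeR test, 10 of 10 genes were higher at P18 and 10 of 10 at P21, against 9.94% and 7.25% of all genes, and 0 of 10 at P15, where 12.3% of all genes passed in either direction.

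DESeq2, the tool of the study's methods, called 10 of the 10 genes as higher at P18, as it did 3.42% of all genes, and 8 of 10 at P21, as it did 2.23%, leaving out Igtp and Gbp5. At P15 it called 0 of 10, and 2.04% of all genes in either direction. The fold changes of both tools differed little. Gbp6, for instance, was higher by 3.72 in either tool at P18, with an adjusted p by DESeq2 of 1.84e-10. In both rd10 libraries of P18 each of the 10 genes exceeded both WT libraries, which held for 24.1% of all genes, and at P21 this held for 10 of 10 and 24.9% of all genes. A log2 fold change over 2 was reached by 10 of 10 genes at P18 and 10 of 10 at P21, against 5.6% and 4.91% of all genes. For a single gene, an exact permutation test, two-sided, with 2 libraries in each group cannot go below p = 0.333, which each of the 10 genes reached at P18 and at P21.

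**Figure D3:**
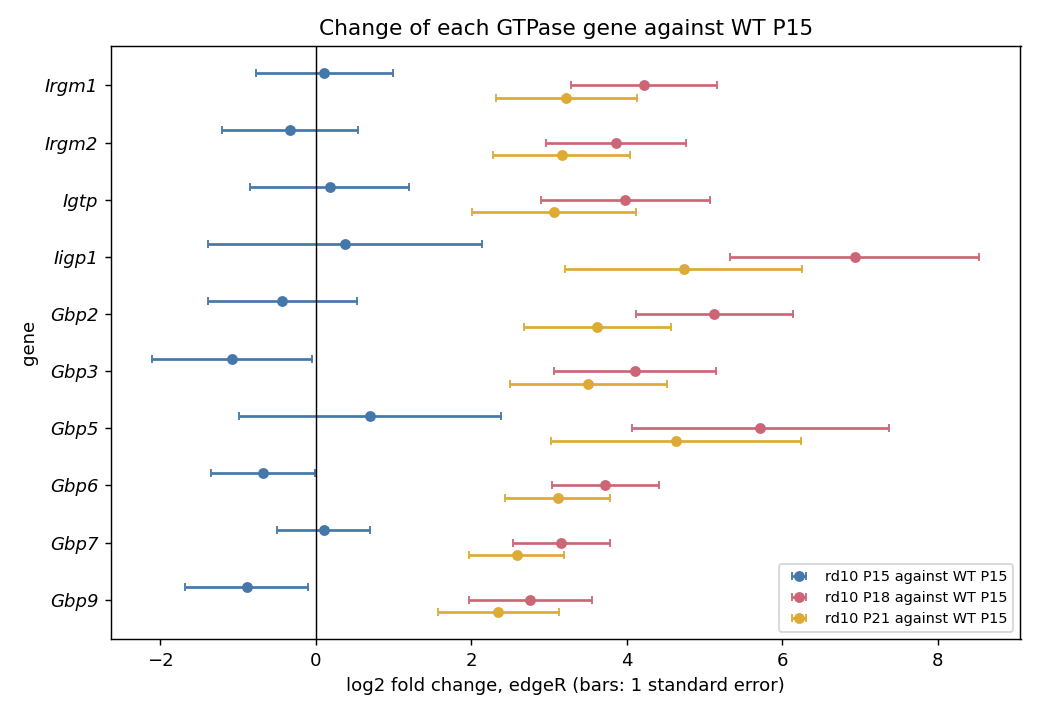
Log2 fold change of each GTPase gene against WT P15 by edgeR, for rd10 P15 (blue), P18 (red) and P21 (yellow); bars are 1 standard error and the vertical line marks 0. The P15 values lie between -1.08 and 0.69, the P18 values between 2.76 and 6.93 and the P21 values between 2.35 and 4.73, and the bars are longest for Iigp1 and Gbp5.

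The later rd10 groups were also compared with rd10 P15. This holds the genotype fixed, but age still differs, and no wild-type retina of P18 or P21 was among the samples. Both rd10 P15 libraries also had Y-linked counts, as only replicate 1 did in each later group. The 10 log2 fold changes then had medians of 4.29 (P18) and 3.64 (P21). No library of the later group overlapped with rd10 P15 for any of the 10 genes at either age, which held for 21.9% and 26% of all genes. EdgeR called 0 of 10 in both comparisons (0.591% and 0.401% of all genes), whereas an unadjusted p under 0.05 was reached by 10 of 10 in each, all higher, against 7.43% and 7.39% of all genes. DESeq2 called 9 of 10 at P18, leaving out Gbp5, and 7 of 10 at P21, leaving out Igtp, Iigp1 and Gbp5, against 2.22% and 2.06% of all genes called higher. By edgeR, Gbp6 had the lowest adjusted p, 0.0688 at P18 and 0.108 at P21.

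From P18 to P21 each gene had a negative log2 fold change, between -2.20 for Iigp1 and -0.41 for Gbp9, with a median of -0.81. No gene passed: edgeR and DESeq2 each called 0 of 10 (0.0196% and 0.628% of all genes), 0 of 10 had an unadjusted p under 0.05 (6.04% of all genes did and were lower), and Iigp1 alone had both P21 libraries below both P18 libraries, which held for 22% of all genes. The sign rested on single libraries. Without replicate 1 of rd10 P18 the median was 0.04 with 7 of 10 genes positive, and without replicate 2 of rd10 P21 it was -0.07 with 5 of 10 positive. At P15, 3 genes (Irgm2, Gbp3 and Gbp6) had both rd10 libraries below both WT libraries, which held for 24.9% of all genes, and the log2 fold changes of the 10 genes lay between -1.08 (Gbp3) and 0.69 (Gbp5).

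The replicates of the later groups differed in the same direction for every gene of the set. Replicate 1 was higher than replicate 2 for 10 of 10 genes in rd10 P18 and for 10 of 10 in rd10 P21, compared with 5 of 10 in each P15 group and 50.1% and 51% of all genes tested. The median log2 ratio of replicate 1 over replicate 2 was 1.44 at P18 and 2.16 at P21. Over all genes tested, the median absolute log2 ratio was 0.42 and 0.24. The log2 ratio was highest for Iigp1 at P21 (3.39) and lowest for Gbp7 at P18 (0.60). A more than 2-fold excess in replicate 1 was seen for 8 of 10 genes at P18 and 10 of 10 at P21, against 8.79% and 8.96% of all genes.

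The higher replicate was the library with Y-linked counts in both groups. Within the libraries without Y-linked counts, rd10 P18 replicate 2 was above both WT P15 libraries for 10 of 10 genes, with a median log2 ratio of 3.09, and rd10 P21 replicate 2 for 10 of 10, with a median of 1.75. Within the libraries with such counts, rd10 P18 and P21 replicate 1 were above both rd10 P15 libraries for 10 of 10 genes each, with medians of 4.80 and 4.33. With a term for sex in the edgeR fit, the median log2 fold change against WT P15 was 2.93 at P18, where 7 of 10 genes were called, and 1.96 at P21, where Irgm1 was the 1 gene called. In that fit it was -2.10 at P15 with 10 of 10 genes negative and none called. The 2 libraries of each P15 group are alike in Y-linked counts. The term was therefore set by the replicate differences within rd10 P18 and P21 alone, and at P15 it cannot be told apart from genotype. Leaving out replicate 1 of P21 lowered the median at P21 to 1.74, and leaving out replicate 2 raised it to 3.94 with Irgm2, Gbp6 and Gbp7 called.

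Per kilobase of exon, Igtp had the highest level in WT P15, at 1.76 ± 0.52 CPM per kilobase (SD, n = 2), in rd10 P15 (1.99 ± 1.04) and in rd10 P21 (14.7 ± 14.7). In rd10 P18 Gbp2 led with 31.2 ± 21.7 CPM per kilobase, ahead of Igtp with 27.9 ± 22.7 and Gbp3 with 17.7 ± 10.8. The levels of Gbp5 and Iigp1 were lowest in both P15 groups, between 0.0463 and 0.0719 CPM per kilobase, and Gbp5 stayed last at P18 (2.41 ± 2.06) and P21 (1.13 ± 0.93). Iigp1 moved from the ninth place in WT P15 to the eighth at P18, with 5.98 ± 4.89 CPM per kilobase. At P18 and P21 each difference between neighbours in the order was smaller than the SD of the higher gene, except between Gbp9 (4.97 ± 1.78) and Gbp5 at P18. With the length of the longest transcript in place of all exons, Iigp1 was in place 6 at P18, Igtp and Gbp2 kept these first places, Gbp5 stayed last at P18 and P21, and Irgm1 moved from place 7 to place 3 in WT P15.

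The genes lie in 5 places of the genome (GENCODE M21, GRCm38), and reads can be shared within them. Gbp5, Gbp7, Gbp3 and Gbp2 lie in 1 row on chromosome 3 between 142493978 and 142638008, and Gbp9 and Gbp6 on chromosome 5 between 105077630 and 105293698. Igtp (chromosome 11, 58199556 to 58207591) and Irgm2 (58199618 to 58222782) overlap in 162 exonic bases on the same strand, Irgm1 lies apart on chromosome 11 (48861968 to 48871683), and Iigp1 lies on chromosome 18 (60376027 to 60392634). Of all 50-base windows of the longest transcript, Irgm1 shared 0% with any other gene, 6 of the others between 2.07% and 8.31%, and Igtp, Gbp7 and Gbp6 shared 12.3%, 12.8% and 59.7%. Gbp6 is the uncertain case: 51.5% of its windows also occur in the overlapping gene model Gm43302, which had 0 and 62 counts in WT P15, 44 and 0 counts in rd10 P15, 938 and 731 counts in rd10 P18, and 757 and 0 counts in rd10 P21. With both rows added, the log2 fold change was 3.98 at P18 and 3.18 at P21. Counts were also summed over groups of family genes. At P18 this gave 4.19 ± 0.83 for Gbp2, Gbp2b, Gbp3, Gbp5 and Gbp7, and 3.82 ± 0.81 for Gbp4, Gbp6, Gbp8, Gbp9, Gbp10 and Gbp11. The sum of Irgm2, Igtp, Ifi47, Tgtp1, Tgtp2 and Gm12250 gave 4.21 ± 1.13. It is not 1 genomic cluster: the promoter windows of Tgtp1, Tgtp2 and Ifi47 start at 48992197, 49064163 and 49076337 on chromosome 11, apart from Igtp and Irgm2. EdgeR called none of these sums.

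The other IRG and GBP genes mostly had few counts at P15. Of 18 listed, 16 had a row and 14 were tested, and Gbp2b and Irgc1 had no counts. None of the 14 was called by edgeR at P18 or P21, 9 and 6 had an unadjusted p under 0.05, and DESeq2 called 4 and 1. Both rd10 libraries were above both WT libraries for 13 of 14 at P18 and for 5 of 14 at P21, against 24.1% and 24.9% of all genes. Gbp10, a neighbour of Gbp6, had no counts in WT P15 and 1177 and 268 counts (35.1 and 8.44 CPM) in rd10 P18. The mean of these unlike libraries was 421-fold above the WT group when that was set to a floor of 3 counts in all. The adjusted p of Gbp10 by edgeR at P18 was 0.213, and in rd10 P21 it had 23.3 and 0.909 CPM. Ifi47, an IRG gene of chromosome 11, had 0.148 and 0.0971 CPM in WT P15 and 33.7 and 5.39 CPM in rd10 P18. Irgq, a family member that interferon is not known to induce, had between 53.5 and 82.9 CPM in all 8 libraries, and its log2 fold change was -0.31 at P18 and -0.02 at P21.

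Interferon transcripts themselves were scarce. Ifng, the gene for interferon gamma, had 12 counts in rd10 P18 replicate 1 and 0 in the other 7 libraries, and a group at 0 allows up to 3 counts over its 2 libraries. Ifnb1, the gene for interferon beta, had 16 counts in rd10 P18 replicate 1, 12 in rd10 P21 replicate 1 and 0 elsewhere. These were the libraries with the higher GTPase levels at each age. The other 8 interferon genes listed, among them 4 interferon alpha genes, had no counts in any library.

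Among the receptor and signalling genes, the transcription factors Irf1 and Irf8 rose at P18. Ifngr1 and Ifngr2, which encode the interferon gamma receptor, had log2 fold changes of 0.27 and 0.45 at P18, and the kinase genes Jak1 and Jak2 had -0.11 and -0.08. Ifnar2, which encodes a chain of the type I interferon receptor, had 0.95 at P18 and 1.018 at P21, with adjusted p-values by edgeR of 0.207 and 0.28. Irf1, a transcription factor that acts on many GBP promoters, rose from 4.32 and 3.72 CPM in WT P15 to 45.5 and 16.1 CPM in rd10 P18, by 2.94 on the log2 scale (adjusted p by edgeR 0.035). Irf8, which is expressed in myeloid cells, rose from 2.99 and 2.72 CPM to 19.9 and 11.3 CPM, by 2.45 (adjusted p by edgeR 0.033). These were the 2 of 20 receptor and signalling genes that edgeR called at P18. At P18, 10 of 20 had an unadjusted p under 0.05 by edgeR and DESeq2 called 7. EdgeR called none at P21, where 8 of 20 had an unadjusted p under 0.05 and DESeq2 called 6.

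Other interferon targets were described by counts beside the GTPase genes. Of 20 tested interferon gamma targets, 3 were called by edgeR at P18, namely Ifi30 (a lysosomal thiol reductase), Fcgr1 (an Fc receptor) and H2-Ab1 (a class II histocompatibility chain), with a median log2 fold change of 3.29 over the list. At P18, 18 of 20 had an unadjusted p under 0.05 by edgeR, and DESeq2 called 14 as higher (3.42% of all genes). EdgeR called none at P21, where 14 of 20 had an unadjusted p under 0.05 and DESeq2 called 8 (2.23% of all genes). Of 22 type I interferon targets, edgeR called 1 at P18 and at P21, Rtp4. It had 0.628 and 0.647 CPM in WT P15, 18.5 and 10.9 CPM in rd10 P18, and 15.2 and 4.34 CPM in rd10 P21. An unadjusted p under 0.05 by edgeR was reached by 20 of 22 at P18 and 18 of 22 at P21, all higher. DESeq2 called 17 and 15 as higher, against the same shares of all genes as above. The median of this list was 4.63 at P18 and 4.20 at P21. The summed level of the type I targets was 70.4 and 88.0 CPM in WT P15, 1254 and 485 CPM in rd10 P18, and 1089 and 199 CPM in rd10 P21, with replicate 1 above replicate 2 at both later ages, as for the GTPase genes.

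The genes whose pattern over the 8 libraries was most like the mean of the GTPase genes were Trim12c, Psmb8, Parp12, Irf8, Ifit1, St3gal4, Ifitm3, Ifit3, Isg15 and H2-T23. Their Pearson correlation with that mean lay between 0.987 and 0.996, and 1.93% of the 15111 genes compared had a correlation over 0.9. The 45 pairs of GTPase genes correlated between 0.824 and 0.990 on the log2 CPM scale, with a median of 0.945. The points are 8 libraries in 4 groups, so the values describe a shared difference between groups and replicates.

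Genes for loading the GTPases onto membranes had median differences near 0, and caspase and inflammasome genes had higher sums at P18. The autophagy conjugation genes and ubiquitin-like proteins that place IRG and GBP proteins on membranes, such as Atg5, Atg7 and Gabarapl2, differed from WT P15 by a median of 0.04 (P18) and -0.07 (P21) on the log2 scale. Of these 12 genes edgeR called none at either age, 2 and 1 had an unadjusted p under 0.05, and DESeq2 called Map1lc3b, lower at P21. The 8 cytosolic caspase and inflammasome genes listed had sums of 2.62 and 5.83 CPM in WT P15 and 35.6 and 19.6 CPM in rd10 P18. In rd10 P21 the sums were 27.1 and 5.66 CPM, where replicate 2 lay within the WT range. None of the 8 was called by edgeR at P18 or P21, with 3 and 2 at an unadjusted p under 0.05, and DESeq2 called 2 at each age, Casp1 and Ifi204.

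Of the markers of other cells, those of microglia, reactive glia and monocytes had higher sums in all 4 libraries of rd10 P18 and P21 than in WT P15. Microglia markers summed to 72.8 and 83.9 CPM in WT P15 and, already higher, to 108 and 104 CPM in rd10 P15. They summed to 272 and 281 CPM in rd10 P18, and 384 and 201 CPM in rd10 P21. EdgeR called 0 of 10 at P15, 4 of 10 at P18 (among them C1qa, Itgam and Tmem119) and 3 of 10 at P21. At P18 the microglia sums of the 2 replicates were close, while the GTPase sums were 682 and 255 CPM. At P21 replicate 1 was the higher in both, with GTPase sums of 407 and 90.4 CPM. Reactive glia markers, such as Gfap, summed to 1786 and 1689 CPM in rd10 P18, against 260 and 285 CPM in WT P15, with 7 of 8 called at P18 and 5 of 8 at P21.

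Monocyte and macrophage markers summed to 4.07 and 7.90 CPM in WT P15, 8.91 and 7.58 CPM in rd10 P15, 50.9 and 47.9 CPM in rd10 P18, and 42.2 and 18.7 CPM in rd10 P21. Lyz2 was the 1 gene of 7 tested that edgeR called at P18. T and NK cell markers summed to between 0 and 5.01 CPM in each library, Cd3e had no counts in any, with 5.01 and 1.98 CPM in rd10 P18 against 2.83 and 3.42 CPM in rd10 P15. Of these 12 markers, 10 and 12 were at 0 in the WT P15 libraries, 2 and 9 in those of rd10 P18, and 4 and 9 at P21. Endothelial markers summed to 246 and 311 CPM in WT P15, 386 and 348 CPM in rd10 P15, 279 and 343 CPM in rd10 P18, and 519 and 408 CPM in rd10 P21, and Cldn5 was called at P15 and P18. Muller glia markers summed to 3305 and 3664 CPM in WT P15, below that in rd10 P18 (2669 and 2767 CPM) and above it in rd10 P21 (4105 and 3940 CPM). Retinal pigment epithelium markers summed to between 37.3 and 222 CPM in the 4 P15 libraries and between 18.6 and 29.98 CPM in the 4 later ones. Red blood cell markers summed to between 56.8 and 188 CPM and lens markers to between 0.443 and 5.13 CPM over all 8 libraries. The part of these cells in the GTPase levels was not tested.

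**Figure D4:**
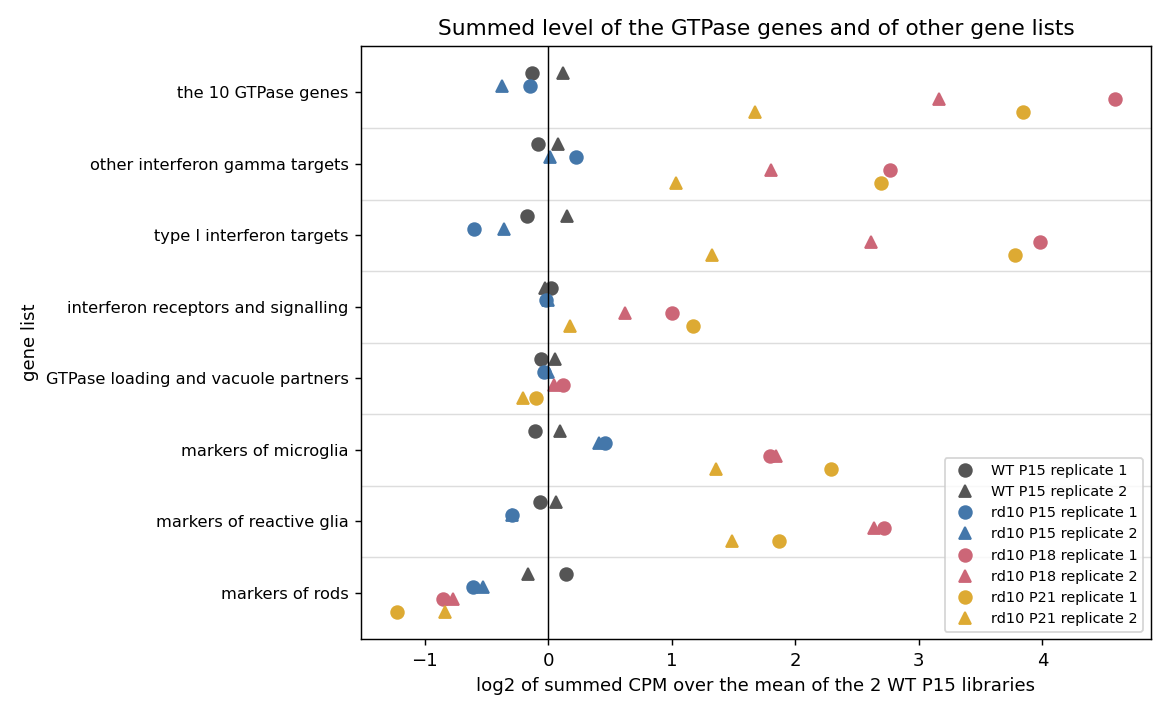
Summed CPM of the 10 GTPase genes and of 7 other gene lists, as log2 over the mean of the 2 WT P15 libraries; each symbol is 1 library, coloured by group, with circles for replicate 1 and triangles for replicate 2. The GTPase genes and the type I interferon targets reach furthest to the right and have circles well right of the triangles at P18 and P21. Microglia and reactive glia markers have nearly equal replicates at P18 and the circle right of the triangle at P21. The loading and vacuole partners stay near 0.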

How the data were processed

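The authors deposited raw read counts, whole numbers per Ensembl gene identifier without normalization, in 1 table with 8 columns, 1 for each library, all of which were used. HISAT2 is named in the submitters' processing notes without a version. The sources used here do not give the counting tool, genome build, annotation or strand setting, so that overlapping and antisense genes are uncertain. Symbols and positions came from GENCODE M21, which named 52081 identifiers, and promoter sequences from RefSeq.

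Genes were kept by filterByExpr (minimum count 10, minimum total 15) and fitted in 1 model of 8 libraries with group as the only term (edgeR 4.0.16, limma 3.58.1, R 4.3.3, TMM, robust quasi-likelihood). Benjamini-Hochberg adjustment covered all genes tested. A gene was called at an adjusted p under 0.05 with a log2 fold change beyond 1 in either direction, the thresholds of the study's methods. Log2 CPM used a prior count of 2. DESeq2 1.42.0, other scalings, filters, samples, a replicate block, a term for sex and leaving out each library were tried as alternatives. The code was tested on simulated data. CPM depth carries counting error only, and a group at 0 was given a floor of 3 counts.

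Every one of the 10 genes was named. Of the other lists, genes called against WT P15 were named, together with Ifng and Ifnb1, apart from any that is not reported here. Pattern neighbours are the 10 genes with a mean count of at least 50 that correlate best. Further genes (among them Gbp10, Ifi47, Irgq, Ifngr1, Ifngr2, Jak1, Jak2, Casp1, Ifi204 and Gm43302) were named after their values were seen. The genes and lists were chosen with earlier results of these data known.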

Additional observations from a re-analysis of the deposited data

Results flagged for a closer look

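Irgm2, Gbp3 and Gbp6 lay on opposite sides of WT P15 at different ages: both rd10 P15 libraries lay below both WT P15 libraries, as they did for 24.9% of all genes, and both libraries of rd10 P18 and of P21 lay above them. The difference between the effects, which is the comparison of rd10 P18 with rd10 P15, was 4.19 ± 0.92 (SE, log2) for Irgm2, 5.18 ± 1.11 for Gbp3 and 4.40 ± 0.72 for Gbp6, with adjusted p-values by edgeR of 0.162, 0.161 and 0.0688. For rd10 P21 against rd10 P15 it was 3.49 ± 0.90, 4.58 ± 1.08 and 3.79 ± 0.70, with adjusted p-values by edgeR of 0.206, 0.184 and 0.108. No difference passed the threshold, and the values at P15 alone, -0.33, -1.08 and -0.68, were each within about 1 standard error of 0.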

How the results depend on the processing

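In the comparisons of rd10 P18 and P21 with WT P15 the log2 fold change was positive for 10 of 10 GTPase genes under each alternative run. How many were called depended on the fit. With DESeq2 the number went from 0 to 10 for P18 and 8 for P21 compared with WT P15, and to 9 and 7 against rd10 P15. With only the 4 libraries compared it was 5 at P18 against WT P15 and 2 against rd10 P15. With a term for sex it was 7, 1, 8 and 7 in the same 4 comparisons. Over all genes tested, deviations from the group mean were nearly uncorrelated between groups by replicate number (between -0.025 and 0.059). This does not cover the GTPase genes as a set, for which replicate 1 was the higher in both rd10 P18 and P21. With the replicate number as a block, 4 genes (Iigp1, Gbp5, Gbp6 and Gbp7) were called at P18 against WT P15 and 4 against rd10 P15, and no other count moved. Leaving out 1 library gave 0 to 7 and 0 to 3 against WT P15, and 0 to 5 and 0 to 3 against rd10 P15. At P18 against WT P15, 7 were called without rd10 P21 replicate 1, 6 without rd10 P21 replicate 2 and 1 without rd10 P18 replicate 2. At P21, 3 were called without rd10 P21 replicate 2. Without either rd10 P21 replicate the median log2 fold change at P18 against WT P15 was 4.04 and 4.05, against 4.04 with all libraries. The rd10 P21 libraries are in neither group of that comparison but enter the spread estimated from all groups. The cause of these changes in the number called was not tested. Other scalings, no filter on low counts and the adjusted p alone left 0 called in all 6 comparisons. Scaling by library size alone moved the median of all genes to 0.13 at P18 and 0.11 at P21.

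Among the comparisons with WT P15, signs turned only at P15, where the values are near 0. With a term for sex, which was set by the rd10 P18 and P21 libraries alone, Irgm1 was -1.90, Igtp -2.04, Iigp1 -2.23, Gbp5 -1.28 and Gbp7 -1.10. With the block Igtp was -0.16. With the sums over family genes, Igtp (summed with Irgm2, Ifi47, Tgtp1, Tgtp2 and Gm12250) was -0.37, and Gbp5 and Gbp7 were -0.26. Leaving out 1 library gave ranges of -0.025 to 0.26 for Irgm1, -0.49 to 0.63 for Igtp, -0.49 to 2.43 for Iigp1, -1.23 to 0.095 for Gbp2, -6.22 to 2.28 for Gbp5, -0.37 to 0.46 for Gbp7 and -1.52 to 0.30 for Gbp9, with the turns without either WT P15 replicate or without rd10 P15 replicate 1. The lowest value of Gbp5 sets a group at 0 counts against WT P15, so that its size depends on the fit's prior count.

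Over all genes, edgeR and DESeq2 called 47 and 423 at P15, 303 and 950 at P18, and 79 and 573 at P21 against WT P15, 121 and 601, and 82 and 529 against rd10 P15, and 4 and 120 from P18 to P21. Leaving out 1 library gave 6 to 246, 39 to 1250, 4 to 210, 16 to 977, 10 to 217 and 3 to 963 in that order. Depth limits Iigp1 and Gbp5 most, which had 2 to 14 counts in WT P15.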
